A study of Mus musculus with 29 samples.

Results

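DNA methylation in the lung was compared for an interaction between maternal PM2.5 exposure and allergic challenge: whether ovalbumin (OVA) challenge changed methylation by a different amount in the offspring of PM2.5 exposed dams than in the offspring of Sham dams. The measure was the difference of OVA effects, which is the PM-OVA mean minus the PM mean, less the Sham-OVA mean minus the Sham mean, in percentage points of methylated cytosine (%DNAm). It was computed for every gene-overlapping window on chromosomes 1 to 19 that had a value in all 29 libraries, which were 250325 of 260686 windows in the series. A negative value states that the OVA effect was lower, or more negative, in PM offspring.

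All libraries came from whole genome methylation sequencing (WGMS) of homogenised lung tissue, labelled RML, of 13-week-old female BALB/c offspring. Sham (n = 7) were offspring of dams given intranasal saline that themselves received PBS without OVA, and Sham-OVA (n = 7) were offspring of saline dams that were sensitised and challenged with OVA to produce allergic airway disease (AAD). PM (n = 7) and PM-OVA (n = 8) were offspring of dams given intranasal PM2.5, the fine particle fraction of air pollution, before mating, through gestation and until weaning, without and with OVA. The offspring were never given PM2.5 themselves, and the labels did not tie offspring to litters, so the p-values measured only the spread between these libraries. Homogenised lung holds many cell types, and a change in their proportions cannot be told apart from a change of methylation inside a cell type. One library stood apart from its label: Sham replicate 1 had values in 1224 of 1230 Y chromosome windows, against 29 to 46 in the other libraries, and the main values are also given without it.

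Methylation of cytosine in CpG dinucleotides is laid down and copied at cell division by DNA methyltransferases and removed through oxidation by TET enzymes. Most CpGs of the mammalian genome are methylated, whereas CpG islands, the dense clusters found at many promoters, are usually free of methylation. Each cell type carries its own pattern, with low methylation at the enhancers and promoters that it uses.

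The windows were made by the number of CpG positions, so that their length followed the local CpG density. In the GRCm38 genome the median window held 50 CpG dinucleotides, or 100 cytosines on both strands, with 49 at the 5th and 51 at the 95th percentile of windows. Windows under 1500 bp were called dense, windows over 15000 bp CpG-poor and the remainder ordinary, and the mean level over all 29 libraries was called low under 20%, high over 70% and otherwise intermediate. The median density was 83.3 CpGs per kb in dense windows of low level, 9.59 in ordinary windows of high level and 3.13 in CpG-poor windows of high level. The central 300 bases of 3 windows, from the RefSeq copy of GRCm38 and on the plus strand, are shown so that the classes can be seen, with every CpG in capitals. The first pair comes from ordinary windows with large differences of OVA effects, in opposite directions, and the last from a dense window of intermediate level.
Upp2, chr2:58784454-58784753: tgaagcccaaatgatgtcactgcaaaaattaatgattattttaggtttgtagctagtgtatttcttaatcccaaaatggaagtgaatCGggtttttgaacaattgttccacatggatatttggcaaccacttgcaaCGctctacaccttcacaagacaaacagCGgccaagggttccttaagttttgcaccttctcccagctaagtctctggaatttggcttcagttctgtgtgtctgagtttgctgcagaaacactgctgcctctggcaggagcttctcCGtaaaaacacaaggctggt
Plxdc2, chr2:16584324-16584623: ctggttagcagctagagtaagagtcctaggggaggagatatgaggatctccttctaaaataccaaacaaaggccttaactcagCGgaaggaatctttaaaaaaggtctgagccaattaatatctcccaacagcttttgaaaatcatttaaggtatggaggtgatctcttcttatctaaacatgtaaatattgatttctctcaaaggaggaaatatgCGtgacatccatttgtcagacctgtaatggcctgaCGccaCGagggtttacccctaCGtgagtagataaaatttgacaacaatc
Kcnc1, chr7:46398246-46398545: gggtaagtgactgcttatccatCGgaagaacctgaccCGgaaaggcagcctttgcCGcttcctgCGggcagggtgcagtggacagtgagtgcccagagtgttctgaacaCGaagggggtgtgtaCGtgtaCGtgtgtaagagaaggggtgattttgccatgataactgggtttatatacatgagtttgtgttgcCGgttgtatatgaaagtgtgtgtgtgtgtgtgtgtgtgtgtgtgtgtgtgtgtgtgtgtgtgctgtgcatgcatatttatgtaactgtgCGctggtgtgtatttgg
The stretch in Kcnc1, which encodes a voltage-gated potassium channel, held 9 CpGs, and those in Upp2 and Plxdc2 held 4 and 5. The dense window was chosen after its values were seen, as the one of smallest p with a positive difference of at least 5 points, and its values are given as a description. Its difference of 6.33 points (limma adjusted p = 0.558) is opposite in sign to the mean of its class, in which 66.2% of windows were negative. At Kcnc1 (chr7:46397939-46398853) %DNAm had medians of 23.9 in Sham (19.5 to 28.1), 25.9 in Sham-OVA (21.2 to 27.6), 19.9 in PM (16.8 to 22.1) and 27.0 in PM-OVA (20.8 to 32.4). Control and OVA libraries overlapped in both maternal groups, and the OVA effect was 0.954 points in Sham against 7.29 points in PM offspring.

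Over all windows the mean level differed little between groups, and the difference of OVA effects was negative but did not pass the test. Mean %DNAm was 69.0 ± 0.366 in Sham (SD, n = 7; 68.5 to 69.5), 68.7 ± 0.597 in Sham-OVA (n = 7; 67.8 to 69.5), 69.3 ± 0.463 in PM (n = 7; 68.7 to 70.1) and 68.4 ± 0.391 in PM-OVA (n = 8; 67.8 to 68.9). All groups overlapped, and PM and PM-OVA shared only the interval between 68.7 and 68.9. OVA challenge moved the mean by -0.300 points in Sham against -0.961 points in PM offspring, and their difference was -0.661 points (95% interval -1.58 to 0.0275). The 2-sided exact permutation test, in which the maternal label was exchanged within the OVA and within the control libraries over all 22084920 assignments, gave p = 0.0590. Without Sham replicate 1 the difference was -0.662 points (exact permutation p = 0.0677). In 7 of the 29 fits that each left out 1 library the p fell under 0.05, and it was lowest without Sham-OVA replicate 5, at 0.0157 for a difference of -0.821 points.

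The PM libraries lay on opposite sides of the Sham libraries by mean without and with OVA. Without OVA the PM mean was 0.315 points above Sham, and with OVA the PM-OVA mean differed from Sham-OVA by -0.346 points. The shift was spread over the windows: 72.2% had a negative difference, the median was -0.594 points, and 90% of windows lay between -2.64 and 1.15 points. After each library was centred, by subtraction of its own mean over all member windows, 47.6% of windows had a negative difference.

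**Figure D1:**
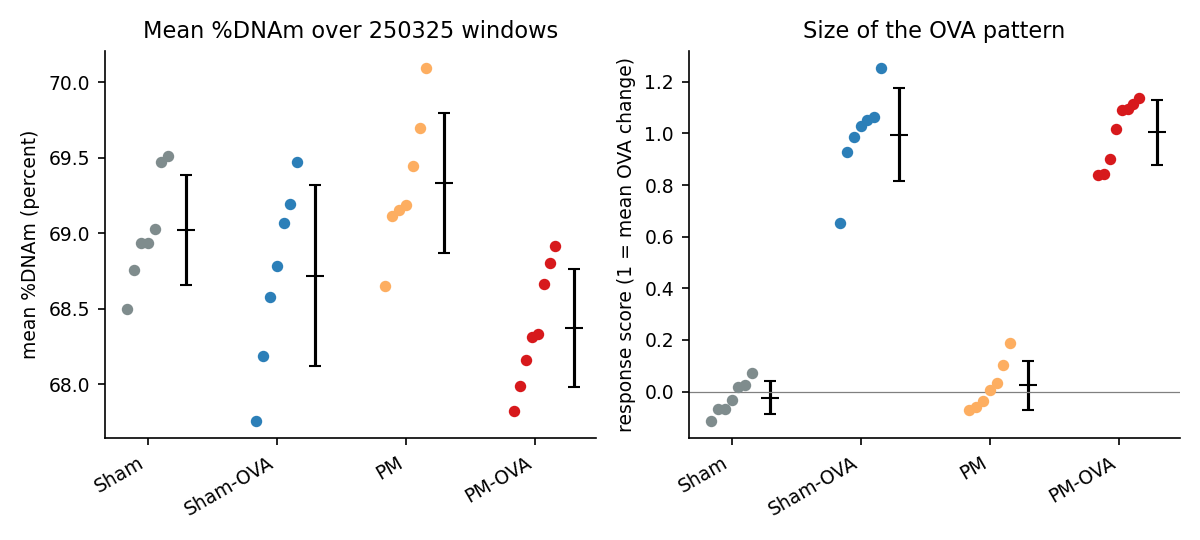
Left, mean %DNAm over the 250325 windows for each library (points) by group, with the group mean and SD beside them; right, the response score of each library, where 0 is the mean of the control libraries and 1 the mean change after OVA. PM-OVA libraries sit between 67.8 and 68.9% on the left, and on the right the OVA groups sit between 0.653 and 1.25, and overlap each other.

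The size of the whole OVA pattern, as distinct from the mean level, did not differ detectably with maternal exposure. A response score was given to each library as the slope of its windows on the OVA effect pooled over both maternal groups, a measure added after the data were seen. The score was -0.0238 ± 0.0643 in Sham and 0.995 ± 0.181 in Sham-OVA (SD, n = 7 each). It was 0.0238 ± 0.0939 in PM (n = 7) and 1.00 ± 0.126 in PM-OVA (n = 8). The pooled control mean is 0 and the pooled OVA change 1 by construction, and the separation of OVA from control libraries follows from the same libraries that define the pattern, so only the comparison between maternal groups is read from the score. Sham-OVA (0.653 to 1.25) spanned all of PM-OVA (0.838 to 1.14). The OVA effect on the score was 1.02 in Sham and 0.981 in PM offspring, a difference of -0.0378 with a 95% interval of -0.254 to 0.147 (exact permutation p = 0.681). Without Sham replicate 1 the difference was -0.0299, and leaving out Sham-OVA replicate 7 gave -0.0915 and leaving out Sham-OVA replicate 6 gave 0.00474.

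The same was seen when windows were grouped by how far they moved after OVA in the pooled comparison. The 856 windows with a pooled gain of 10 points or more gained 13.8 points in Sham against 12.0 points in PM offspring, a difference of -1.75 points (95% interval -5.64 to 1.44). The 5651 windows with a pooled gain of 5 to 10 points gained 7.29 and 6.05 points, a difference of -1.23 points (-3.66 to 0.647). At the other end, the 748 windows with a pooled loss of 10 points or more lost nearly the same amount in both, with effects of -12.8 and -12.7 points and a difference of 0.0626 points (-2.43 to 2.70). The 6661 windows with a pooled loss of 5 to 10 points had effects of -6.14 and -6.58 points. The 156187 windows that moved by under 2 points, which are 62.4% of all, had effects of 0.0383 and -0.567 points. None of the 7 classes had an adjusted p under 0.05 by the exact permutation test, the smallest being 0.282. The remaining 59419 windows with a pooled loss and 20803 with a pooled gain of 2 to 5 points had differences of -0.693 and -0.880 points. After centring, losses of 10 points or more and of 5 to 10 points had differences of 0.723 and 0.227 points. Gains of the same sizes had centred differences of -1.09 and -0.572 points, and the smallest adjusted exact permutation p of the 7 classes was 0.694. Leaving out single libraries moved the classes at both ends, as deposited. The windows with losses of 10 points or more ran from -0.435 points without Sham-OVA replicate 6 to 0.807 points without Sham-OVA replicate 7, and were at 0.0135 points without Sham replicate 1. Those with losses of 5 to 10 points ran from -0.669 to -0.0708 points without the same 2 Sham-OVA libraries. Those with gains of 10 points or more ran from -2.40 points without Sham-OVA replicate 7 to -1.15 points without PM replicate 1, and were at -1.58 points without Sham replicate 1. None of the 29 fits passed in any of the 7 classes.

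**Figure D2:**
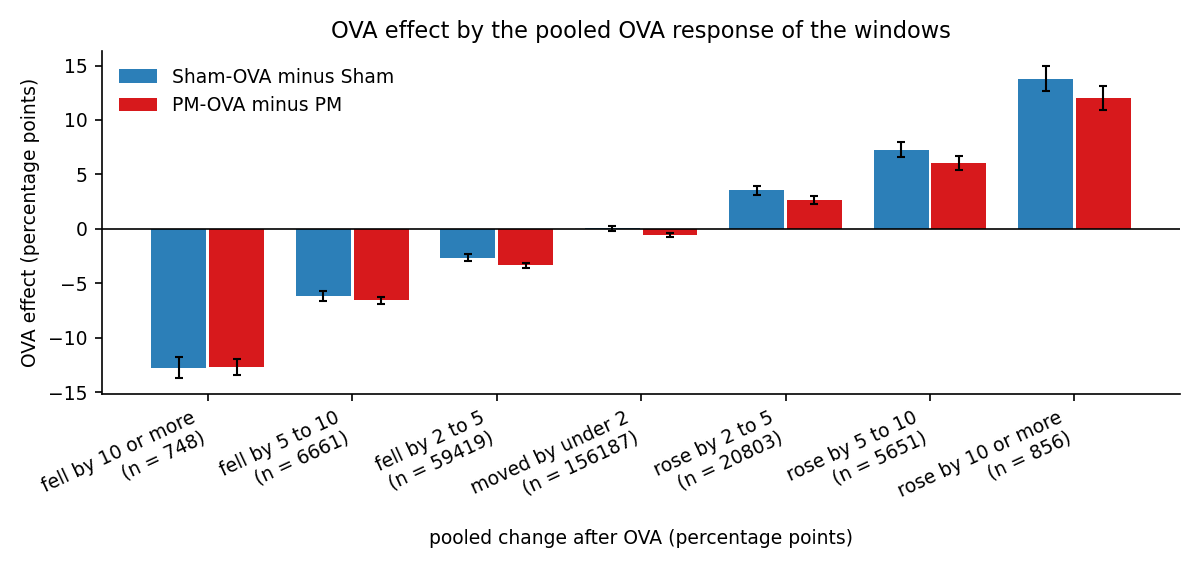
OVA effect in percentage points (bars, mean difference between groups) in Sham and PM offspring for windows classed by their pooled change after OVA, with the number of windows under each class; error bars are the SE of the difference of 2 group means. The bars run from -12.8 to 13.8 points in Sham and from -12.7 to 12.0 points in PM offspring.

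By CpG density and level, all 8 classes with at least 500 windows had a negative difference of OVA effects, and none passed the test after adjustment over the 8. Dense windows of intermediate level had the most negative value. Their mean %DNAm was 36.0 ± 0.706 in Sham (35.0 to 37.2) and 39.8 ± 0.605 in Sham-OVA (39.3 to 41.0), with no overlap. It was 36.4 ± 0.516 in PM (35.6 to 37.2) and 39.1 ± 0.708 in PM-OVA (37.8 to 39.7), also with no overlap. These 1102 windows thus gained 3.81 points in Sham against 2.67 points in PM offspring, a difference of -1.14 points (95% interval -2.39 to -0.176; exact permutation p = 0.0227, adjusted p = 0.0911). Without Sham replicate 1 it was -0.977 points with an adjusted exact permutation p of 0.131. The class passed without PM replicate 5 (-1.17 points), without Sham-OVA replicate 5 (-1.20 points) and without Sham replicate 4 (-1.33 points), with adjusted exact permutation p of 0.0416, 0.0351 and 0.0244. After centring it was -0.477 points (-1.61 to 0.597; exact permutation p = 0.345), and it was -0.314 points without Sham replicate 1 and -0.262 points without Sham-OVA replicate 6.

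Dense windows of low level, the class that holds CpG islands, had mean %DNAm of 2.37 ± 0.0948 in Sham, 2.72 ± 0.0632 in Sham-OVA, 2.38 ± 0.0579 in PM and 2.64 ± 0.0525 in PM-OVA. The OVA libraries lay above the controls without overlap in both maternal groups, by 0.358 points in Sham against 0.259 points in PM offspring over 17730 windows. The difference was -0.0984 points (95% interval -0.220 to 0.00867; exact permutation p = 0.0683), and without Sham replicate 1 it was -0.0843 points (adjusted exact permutation p = 0.143). Ordinary windows of low level (n = 3960) gained 0.527 points in Sham against 0.249 points in PM offspring, a difference of -0.278 points (-0.628 to -0.00492; exact permutation p = 0.0465, adjusted p = 0.0911). It passed without the same 3 libraries, at -0.309, -0.326 and -0.338 points, and without Sham replicate 1 it was -0.248 points.

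Ordinary windows of high level, which were 67.6% of all, had OVA effects of -0.606 points in Sham against -1.32 points in PM offspring, a difference of -0.711 points (-1.73 to 0.0482). For ordinary windows of intermediate level the effects were 0.325 and -0.377 points and the difference -0.702 points (-1.68 to 0.0417). The remaining dense windows, of high level, had a difference of -0.578 points, and the CpG-poor windows -0.614 points at intermediate and -0.894 points at high level. After centring, the difference became -0.0505 points (-0.173 to 0.0451) in ordinary windows of high level and -0.0412 points at intermediate level. Centred on the median of each library in place of its mean, these 2 values were 0.103 and 0.112 points. Centred on the mean, the difference was positive in the classes of low level, at 0.562 points (-0.108 to 1.45) in dense and 0.383 points (-0.138 to 1.06) in ordinary windows of low level. It was also positive in dense windows of high level (0.0825 points) and CpG-poor windows of intermediate level (0.0470 points). The same library mean is subtracted from every class, whatever its own level. After centring no class passed, with a smallest adjusted exact permutation p of 0.552.

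**Figure D3:**
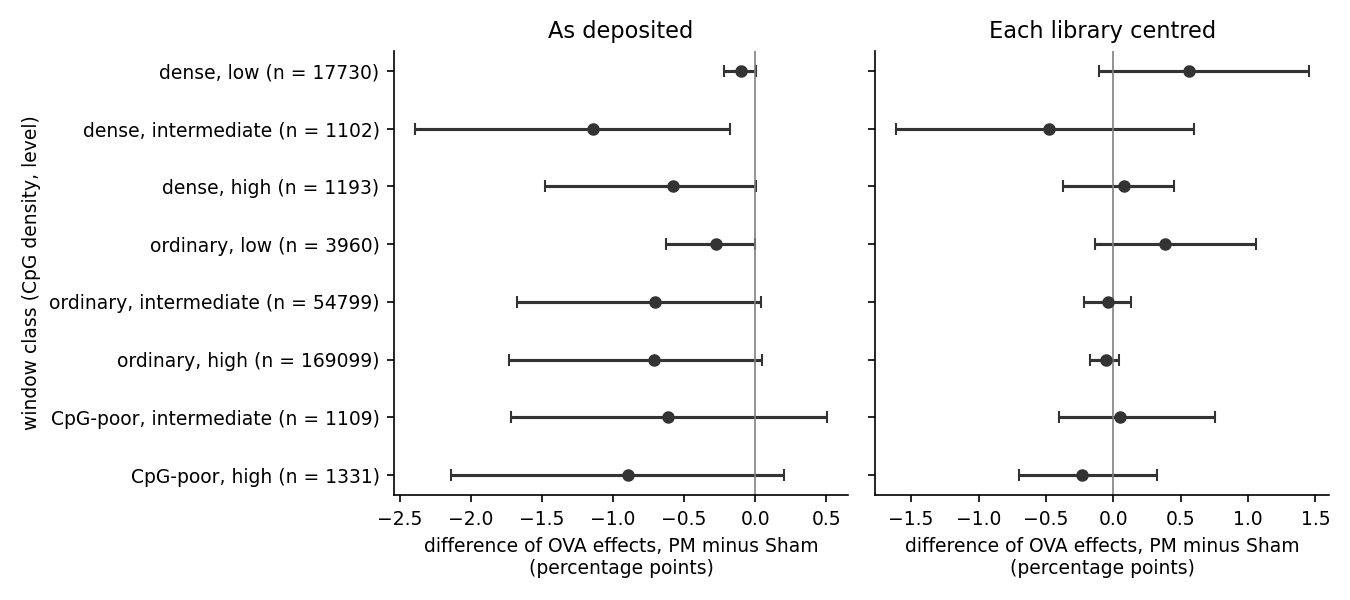
Difference of OVA effects (PM minus Sham, percentage points) by window class, as deposited on the left and with each library centred on the right; points are class means over windows, bars are 95% intervals from the exact permutation test, and n is the number of windows. On the left all 8 points are below 0, from -1.14 to -0.0984, and on the right they lie on both sides, from -0.477 to 0.562.

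By position in genes and by chromosome, the difference of OVA effects was negative in every class as deposited, and the classes were not tested against each other. Windows that overlapped a promoter, taken as 2000 bp upstream of a start site in GENCODE M21, had a difference of -0.565 points (95% interval -1.33 to 0.0275; n = 56950). Exonic windows without a promoter had -0.632 points (n = 106750) and windows inside introns only -0.759 points (n = 86625), each with an adjusted exact permutation p of 0.0618, or 0.0711 without Sham replicate 1. Each of the 3 classes passed in 7 of the 29 fits without 1 library, with a smallest adjusted exact permutation p of 0.0179 without Sham-OVA replicate 5. Centred, the 3 values were 0.0960, 0.0288 and -0.0986 points, with a smallest adjusted exact permutation p of 0.129, and the exonic value ran from 0.0157 points without Sham-OVA replicate 7 to 0.0435 points without Sham-OVA replicate 6. Centred on the median in place of the mean of each library, the 3 values were 0.249, 0.182 and 0.0547 points, so that the sign of the intronic value turned. All 19 autosomes had a negative difference, between -0.611 points on chromosome 11 and -0.710 points on chromosome 6.

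At single windows, limma found no interaction at an adjusted p under 0.05, which is 0% of 250325 windows, and so no interaction DMR of 10 points or more. At an unadjusted p under 0.05 there were 17454 windows (6.97%) with a lower and 1385 windows (0.553%) with a higher OVA effect in PM offspring. With the library means removed the same counts were 6285 and 8225. As deposited but without Sham replicate 1 they were 16946 and 1447, and again no window passed after adjustment. A difference of at least 5 points was seen in 822 windows, and one of at least 10 points in 49, of which 36 were negative and 13 positive. After centring 41 windows reached 10 points, 24 negative and 17 positive. The 49 windows were unlike the rest in make-up: 61.2% of them held more than 51 CpGs in the genome, against 39.3% of the 822 and 4.06% of all windows. The part of this in the values was not tested.

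The window with the smallest p among those of 5 points or more was in Mical2, which encodes an actin-oxidising monooxygenase (chr7:112354822-112361404, 50 CpGs, with 373 exonic bases). Its %DNAm had medians of 76.2 in Sham (72.3 to 78.1), 79.2 in Sham-OVA (76.8 to 80.4), 79.3 in PM (77.1 to 80.9) and 75.9 in PM-OVA (74.3 to 77.4). The order of control and OVA libraries was thus opposite in the 2 maternal groups, with effects of 3.17 and -3.22 points, although the ranges overlapped in each. On the scale of the log2 ratio of methylated to unmethylated percentage the interaction was -0.505 ± 0.0887 (SE; limma adjusted p = 0.434).

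In Sp6, the gene of a zinc finger transcription factor, a window of low level (chr11:97019180-97021524) had medians of 14.99 in Sham (12.7 to 17.9), 18.8 in Sham-OVA (16.3 to 21.2), 17.6 in PM (16.9 to 20.6) and 16.3 in PM-OVA (14.03 to 18.2), with effects of 3.79 and -2.05 points (limma adjusted p = 0.476). The window in Upp2, a uridine phosphorylase gene (chr2:58782384-58786824, whose centre is printed above), had medians of 63.4 in Sham (59.2 to 64.7), 72.2 in Sham-OVA (71.7 to 75.5), 67.2 in PM (66.0 to 69.3) and 70.3 in PM-OVA (66.4 to 73.8). Sham and Sham-OVA were separated by a mean of 9.92 points without overlap, whereas PM and PM-OVA differed by 3.03 points and overlapped (limma interaction -0.443 ± 0.0911, adjusted p = 0.476). The control groups differed as well, with all PM libraries above all Sham libraries.

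In the opposite direction, the intronic window in Plxdc2, which encodes a plexin domain protein (chr2:16583103-16585844), had medians of 95.4 in Sham (92.7 to 96.3), 90.6 in Sham-OVA (84.8 to 92.6), 92.2 in PM (88.0 to 94.99) and 93.5 in PM-OVA (90.7 to 95.4). All Sham-OVA libraries lay below all Sham libraries, with an OVA effect of -5.53 points, and the PM groups overlapped with an effect of 1.61 points (limma interaction 1.28 ± 0.240, adjusted p = 0.476). The next 2 windows were in the vomeronasal receptor pseudogene Vmn2r-ps66, with effects of -5.53 and 2.63 points, and in an intron of Sntg1, a syntrophin gene, with effects of -5.93 and 0.713 points. These windows spanned 76 and 77 CpGs, above the usual 50, and that in Plxdc2 spanned 55.

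By gene, with the windows of each gene averaged, 36004 genes were tested and none had an adjusted exact permutation p under 0.05 (0%), nor by limma. On simulated data the exact test recovered 27% of changes of 8 points added to PM-OVA alone. The count of 0 genes therefore does not exclude such changes. The median difference was -0.608 points and 81.9% of genes were negative. At an unadjusted exact p under 0.05 there were 4025 genes (11.2%) with a lower and 77 genes (0.214%) with a higher OVA effect in PM offspring, and limma gave 3708 and 80. The 4102 genes in both directions became 6666 without Sham-OVA replicate 5 and 2708 without Sham-OVA replicate 1. Without Sham replicate 1 they were 3921, and the smallest adjusted exact permutation p was 0.372, at Clca3a1. After centring, 0 genes (0%) passed by either test, and 1019 (2.83%) were lower and 1497 (4.16%) higher at an unadjusted exact p under 0.05, against 993 and 1368 by limma. The smallest adjusted exact permutation p was 0.197 as deposited and 0.216 centred. When only the 12867 genes with at least 5 windows were considered, the smallest were 0.0705 and 0.153.

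The gene with the smallest p was Clca3a1, of the family of calcium-activated chloride channel regulators (6 windows; GRCm38 chr3:144729677-144760977). Its mean %DNAm had medians of 78.0 in Sham (77.6 to 78.5), 79.2 in Sham-OVA (78.7 to 80.7), 79.2 in PM (78.5 to 79.6) and 78.2 in PM-OVA (77.2 to 79.2). Every Sham-OVA library lay above every Sham library, whereas the PM-OVA libraries reached lower than the PM libraries and overlapped them. Without OVA every PM library also lay above every Sham library, so the control groups differed too. The effects were 1.53 and -0.858 points, and the difference was -2.39 ± 0.423 points (SE; exact permutation p = 5.48e-06, adjusted p = 0.197). Centred it was -1.73 points (adjusted exact permutation p = 0.365).

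Gja3, which encodes the gap junction protein connexin 46, had 8 windows, with medians of 55.4 in Sham (54.6 to 56.4), 57.5 in Sham-OVA (56.7 to 58.0), 56.7 in PM (55.9 to 57.6) and 56.3 in PM-OVA (54.3 to 57.7). Sham-OVA lay wholly above Sham, and the PM groups overlapped. Gja3 and Clca3a1 were picked by the p of this difference, so an arrangement that they share follows in part from the choice. The difference was -2.48 ± 0.537 points as deposited and -1.82 points centred (exact permutation p = 5.09e-05 and 4.39e-05, adjusted p = 0.389 and 0.285). For Pllp, the gene of the membrane proteolipid plasmolipin, the OVA effect was 3.74 points in Sham against 1.12 points in PM offspring over 7 windows, and Sham-OVA (56.8 to 58.8) lay above Sham (53.4 to 55.5).

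Pde6a, a subunit of the rod photoreceptor phosphodiesterase, had effects of 0.912 and -1.09 points over 17 windows, and Fam13c had -1.45 and -2.64 points over 31 windows. In Fam13c OVA libraries lay below controls in both maternal groups, and after centring its difference was -0.532 points. Pebp4, a member of the phosphatidylethanolamine-binding protein family with 58 windows, was named for its centred difference of -0.657 points (adjusted exact permutation p = 0.365).

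In the opposite direction, Clk2, a kinase of splicing factors, had mean %DNAm of 50.7 ± 0.430 in Sham, 50.1 ± 0.383 in Sham-OVA, 50.2 ± 0.335 in PM and 50.5 ± 0.355 in PM-OVA over 6 windows, with overlap in all pairs. Its difference was 0.892 ± 0.280 points (exact permutation p = 0.00372, adjusted p = 0.389) and, centred, 1.55 points (adjusted p = 0.216). Bckdha, of branched-chain amino acid breakdown, and Il17ra, an interleukin 17 receptor, had lower means after OVA in both maternal groups. The effects were -4.80 and -3.32 points for Bckdha and -4.31 and -3.33 points for Il17ra. Both OVA groups lay wholly below their controls at both genes. Capn15 and Ehbp1l1 had differences of 0.815 and 1.33 points. The remaining genes named for a higher centred value were Slc3a2, the heavy chain of several amino acid transporters, Kdsr, of sphingolipid synthesis, the kinesin gene Kif5c and the centrosomal gene Cep68, with centred differences of 1.45, 1.06, 0.742 and 1.41 points. As deposited the 4 had differences of 0.785, 0.398, 0.0816 and 0.745 points, and each held 1 dense window of low level. Without Sham-OVA replicate 5 that of Kdsr was 0.161 points and that of Kif5c -0.108 points, and Kif5c was also negative on the log2 ratio scale (-0.00419).

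**Figure D4:**
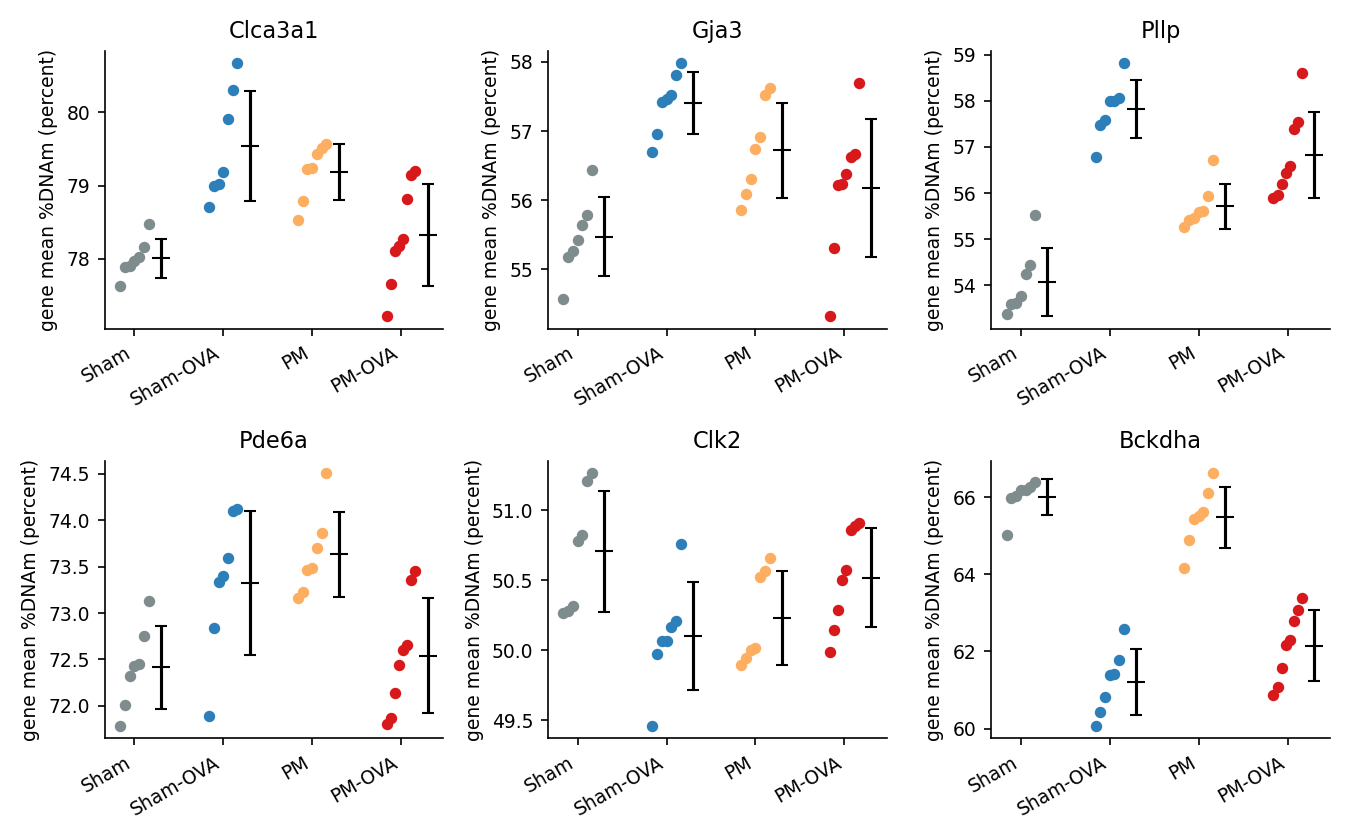
Mean %DNAm over the windows of 6 named genes in each library (points) by group, with the group mean and SD beside them and a separate percent axis for each gene. In Clca3a1, Gja3 and Pllp the Sham-OVA libraries lie above all Sham libraries and PM-OVA overlaps PM. In Clca3a1 the PM libraries also lie above all Sham libraries. In Bckdha both OVA groups lie below their controls.

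Genes of known function, in 10 lists, were described by their counts and medians, beside the median of -0.608 points and the 81.9% negative genes over all genes. No member of a list had an adjusted p under 0.05, so the members are given as values. Over all genes 11.4% had an unadjusted exact p under 0.05 as deposited, and after centring 46.8% were negative and 6.99% had such a p. The counts under an unadjusted p of 0.05 were 4 of 23 type 2, 1 of 23 lymphocyte, 3 of 19 myeloid, 3 of 20 epithelial, 7 of 20 endothelial, 3 of 18 mesenchymal, 4 of 21 xenobiotic, 1 of 14 methylation, 6 of 20 TGF-beta and 2 of 19 imprinted genes. After centring no list had more than 2 such genes. Without Sham replicate 1 the differences of 3 genes named below changed sign, to 0.0890 points at Csf3r, -0.0697 points at Cnn1 and -0.0374 points at Keap1. Epithelial and endothelial genes stood lowest, with medians of -1.01 and -0.988 points. Of 20 epithelial genes 20 were negative, and 1 had an unadjusted exact p under 0.05 after centring. The lowest was Hopx, a homeodomain protein of alveolar type 1 cells, with medians of 52.6 in Sham (52.2 to 54.0), 56.8 in Sham-OVA (54.7 to 57.7), 54.2 in PM (53.6 to 55.1) and 56.0 in PM-OVA (54.3 to 56.5). Sham-OVA lay wholly above Sham, and PM-OVA overlapped PM. The difference was -2.29 ± 0.623 points (exact permutation p = 0.00108, adjusted p = 0.389). Aqp5, the water channel of the same cells, had effects of 1.74 and 0.337 points, and Lamp3, of lamellar bodies in alveolar type 2 cells, was the highest member with at least 3 windows at -0.236 points.

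Of 20 endothelial genes 19 were negative, and of the 7 with an unadjusted exact p under 0.05 as deposited 1 had one after centring. Tie1, an endothelial receptor tyrosine kinase, had OVA effects of 3.08 points in Sham against 0.781 points in PM offspring, and Nos3, the endothelial nitric oxide synthase, -0.0687 and -1.68 points. The von Willebrand factor gene Vwf had -1.15 and -2.25 points over 35 windows, and the transcription factor gene Erg -0.866 and -1.92 points over 56. Esam, an adhesion molecule, was the only positive member at 0.621 points, but ran from -0.00305 points without PM replicate 5 to 1.04 points without PM replicate 1. After centring, 14 genes of each of these lists were negative and the medians were -0.351 and -0.327 points. In the other lists the centred counts of negative genes were 13 of 19 imprinted, 13 of 23 type 2, 12 of 20 TGF-beta, 11 of 18 mesenchymal, 10 of 23 lymphocyte, 10 of 21 xenobiotic, 6 of 19 myeloid and 2 of 14 methylation genes, and no difference between lists was tested.

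The medians of the immune lists lay on both sides of the median of all genes, and closer to it than the epithelial and endothelial medians. Of 23 genes for type 2 immunity and eosinophils 18 were negative with a median of -0.791 points, from -2.50 points at Ccl11, the eosinophil chemokine eotaxin with 1 window, to 0.690 points. Il1rl1, the interleukin 33 receptor, had effects of -1.26 and -2.88 points, and Il5ra, the interleukin 5 receptor, -2.96 and -2.34 points. Of 23 lymphocyte genes 16 were negative (median -0.372 points). The T cell adhesion gene Cd2 had large effects in both, -5.83 and -5.04 points, and the co-receptor gene Cd4 small ones of 0.469 and -0.895 points. Of 19 myeloid genes 14 were negative (median -0.461 points), and Tyrobp, a signalling adaptor with 2 windows, had effects of -10.7 and -8.43 points. Marco, a scavenger receptor of alveolar macrophages, had -0.0877 and -1.43 points, and the G-CSF receptor gene Csf3r -1.55 and -1.66 points.

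Among genes for the handling of inhaled chemicals and oxidants 19 of 21 were negative (median -0.599 points, close to all genes). Of these, 4 had an unadjusted exact p under 0.05: Cyp1a1 and Cyp1b1, which oxidise aromatic hydrocarbons, Ahrr, the repressor of the aryl hydrocarbon receptor, and Aldh3a1, an aldehyde dehydrogenase. After centring 1 of the list, Ahrr, had such a p. Cyp1a1 had OVA effects of 1.71 points in Sham against 0.0507 points in PM offspring, and Ahrr 0.602 and -0.865 points (exact permutation p = 0.00681 and 0.00911, adjusted p = 0.398 and 0.403). Keap1, the sensor that holds back the antioxidant factor Nrf2, had -2.15 and -2.12 points. Of 20 genes of TGF-beta and Smad signalling 18 were negative (median -0.787 points), and the 6 with an unadjusted exact p under 0.05 as deposited became 0 after centring. Smad9 had effects of 1.04 and -0.302 points. The inhibitory Smad6 had OVA effects of 8.59 and 6.89 points over 26 windows, and Smad7, also inhibitory, 8.10 and 7.59 points over 15. Smad4, the common partner of the signalling Smads, had 0.0152 and 0.282 points.

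Mesenchymal genes were negative in 16 of 18 (median -0.730 points), with Tbx5, a transcription factor of lung mesenchyme, at -1.48 points and Cnn1, smooth muscle calponin, at 0.110 points. Genes that write, remove or read DNA methylation were negative in 12 of 14 (median -0.412 points), from -1.02 points at Dnmt3l to 0.0311 points at Mbd1. Of 19 imprinted genes, which carry methylation on 1 parental allele, 18 were negative (median -0.769 points). Cdkn1c, a cyclin-dependent kinase inhibitor, had -2.71 ± 2.09 points with wide spread in Sham (32.9 to 44.4). It was -4.18 points without Sham replicate 4 and -1.93 points without Sham-OVA replicate 5. The non-coding RNA gene Meg3 had 0.305 points.

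**Figure D5:**
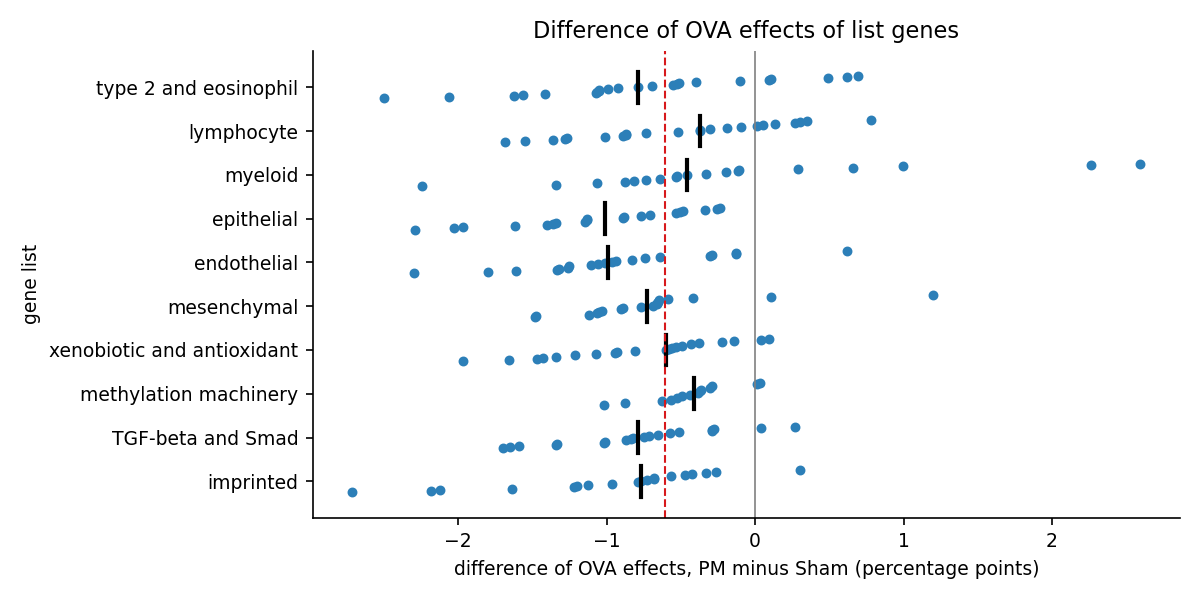
Difference of OVA effects (PM minus Sham, percentage points) of each gene (points) in the 10 lists, with black bars at list medians and a dashed line at the median of all 36004 genes, -0.608 points. Most points lie below 0 in every list, and the epithelial and endothelial medians, -1.01 and -0.988 points, lie left of the dashed line.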

How the data were processed

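The authors trimmed enzymatic methyl-seq reads with Trim Galore and mapped and called methylation with DRAGEN against GRCm38, then computed the deposited percent of methylated calls per 100-CpG window in SeqMonk with at least 10 informative CpGs. The deposited percent values carry no read counts, so the depth of each value is unknown and no counting interval was given. Autosomal windows with a value in all 29 libraries were used. Gene and class values are unweighted means over windows. Single values were tested with exact permutation tests in Python 3.11.15 (numpy 2.4.6, numba 0.67.0), and windows with limma 3.58.1 in R 4.3.3 on the log2 ratio of methylated to unmethylated percent with 1 added to each. The null of the exact test is no maternal difference either with or without OVA. Intervals are by inversion of that test with only the PM-OVA libraries shifted, and so assume no maternal difference without OVA. P-values were adjusted by the Benjamini-Hochberg method over all features, or over the classes of a family. The authors' edgeR test needs counts and was not used.

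Named genes were those with at least 5 windows and the 5 smallest exact p in each direction, as deposited and centred, the 3 windows of smallest limma p per direction at 5 points or more, and the lowest and highest member with at least 3 windows of each list. Predicted genes named Gm or Rik were passed over. Further list members were chosen after their values were seen. Windows, classes and lists were chosen with earlier results of these data known. The response score, the response classes and centring within window class were added after the data were seen. On simulated data with 36004 genes the exact test recovered 14% of changes of 4 points and 27% of changes of 8 points, and limma on 250325 windows recovered 24% and 81%. In these data 1 gene and 5 windows without a change were called. The simulation used independent noise for each feature, without a shift of whole libraries, and added the changes to PM-OVA alone. Smaller changes were not simulated. Alternatives covered the scale, centring, weighting, libraries left out and a replicate block. The dense intermediate window of smallest p, which had a negative difference, is not reported here. No 2 of 406 library pairs were identical.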

Additional observations from a re-analysis of the deposited data

Results flagged for a closer look

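Of 236 groups of libraries looked at, over 59 measures, 5 held a library set apart from the others of its group by a gap that was large against the range of the group. Chance flags about 1 in 20 groups, here about 11.8. Sham replicate 1 had the lowest Bckdha level, 65.0 against 66.0 to 66.4% in the other Sham libraries. Sham replicate 7 was lowest at Marco (68.1 against 69.8 to 70.9%) and at the Upp2 window (59.2 against 62.6 to 64.7%). Sham replicate 4 had 44.4% at Cdkn1c, against 32.9 to 34.8%. Sham-OVA replicate 7 had 73.5% at Csf3r, against 69.1 to 70.9%. No difference of OVA effects passed its test.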

How the results depend on the processing

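The mean difference over all windows stayed negative under all alternatives. It was -0.814 as the median over windows, -0.0590 on the log2 ratio scale and -0.715 without the 2 PM-OVA libraries named Rel, each with an exact permutation p above 0.05. Leaving out single libraries gave -0.821 to -0.534 points. The p was under 0.05 without PM-OVA replicate 3 or 7, PM replicate 5, Sham-OVA replicate 3 or 5, or Sham replicate 2 or 4.

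The replicate numbers of the labels did not pair the libraries: over 42 same-number pairs the correlation of deviations had a median of 0.0149, against -0.0014 over 273 other pairs. With a replicate block the overall difference was -0.630 points (exact permutation p = 0.0339, without PM-OVA replicate 8). With the block, promoter, exonic and intronic windows had -0.537, -0.606 and -0.720 points (adjusted exact permutation p = 0.0391 each). These values use the numbers of the sample titles, which differ from those in the names of some PM-OVA and Sham-OVA libraries, and the block was not run with the latter. The block changed no other call except those of 18 single chromosomes.

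Leaving out single libraries, the classes as deposited ranged from -0.129 to -0.0812 points (dense, low), -1.33 to -0.946 (dense, intermediate), -0.715 to -0.487 (dense, high), -0.338 to -0.233 (ordinary, low), -0.866 to -0.562 (ordinary, intermediate), -0.890 to -0.570 (ordinary, high) and -1.11 to -0.690 (CpG-poor, high). Some of these fits passed the test, without PM replicate 5, Sham-OVA replicate 5 or Sham replicate 4. Promoter, exonic and intronic windows ranged from -0.698 to -0.458, -0.791 to -0.508 and -0.939 to -0.615 points, with 7 of 29 fits passing in each. Centred CpG-poor intermediate windows ranged from -0.0607 to 0.124 points, the response score from -0.0915 to 0.00474, and the windows with losses of 10 points or more from -0.435 to 0.807 points. Centring on the median library value turned ordinary intermediate windows to 0.112, ordinary high windows to 0.103 and intronic windows to 0.0547 points.

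Counts of genes and windows past the adjusted threshold stayed at 0, except that 1 centred gene passed without Sham-OVA replicate 5 (Zfp513) and 1 without Sham replicate 4 (Clk2), and 1 window passed without Sham-OVA replicate 5, a range of 0 to 1 in each case. Some named genes changed sign without single libraries: Cnn1 (-0.0709 to 0.307 points), Csf3r (-0.388 to 0.354), Esam (-0.00305 to 1.04), Keap1 (-0.156 to 0.265), Kif5c (-0.108 to 0.248), Lamp3 (-0.474 to 0.153), Mbd1 (-0.202 to 0.219) and Meg3 (-0.0891 to 0.691). On the log2 ratio scale Kif5c, Mbd1 and Smad4 became -0.00419, -0.0197 and -0.00485. The cause was not tested.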
